A study of Mus musculus with 14 samples.

Results

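The mitochondrial respiratory chain and ATP synthase are built from proteins encoded in 2 genomes, and the genes of both were followed here through retinal microglia and whole retina of the mouse. Members were taken from the gene names of the deposited table: structural subunits and closely named genes of complex I (Ndufa, Ndufb, Ndufc, Ndufs, Ndufv), complex II (Sdh), complex III (Uqcr), complex IV (Cox4 to Cox8) and ATP synthase (Atp5, called complex V), with the protein-coding genes whose names begin with mt-, and without names marked as pseudogenes by -ps. They were 94 of 20902 genes, of which 81 are nuclear-encoded and 13 lie on the mitochondrial genome. Names sorted the nuclear members into 37 for complex I, 4 for complex II, 8 for complex III, 16 for complex IV and 16 for complex V, so that Ndufa4, known today as a complex IV subunit, was counted under complex I. Microglia came from C57BL/6 mice that carry a Cx3cr1-GFP allele and were sorted as GFP+, CD45+ and CCR2- cells. There were 3 microglial libraries at each of 3 ages, embryonic day 16.5 (written e16.5), P7 (7 days after birth) and P60 (60 days after birth), and each was made from pooled litters or pooled retinas. Whole retina came from wild-type C57BL/6 mice, with 3 libraries of central retina at e16.5 and a single library for each of the later ages. All groups were RNA sequenced. Microglial RNA was amplified with a kit for ultra-low input, while the sources used here give no library kit for whole retina, so that tissue, sorting, genotype and RNA handling differ together and cannot be told apart.

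Complexes I to IV pass electrons from NADH and succinate to oxygen, and complexes I, III and IV pump the protons that drive ATP synthase. The mitochondrial genome encodes core subunits of complexes I, III, IV and V and is transcribed as long precursors that are cut into single messages, while all 4 subunits of complex II and all remaining subunits of the other complexes are transcribed in the nucleus. Most nuclear subunit messages are short. Adult retina, and its photoreceptors above all, is known for a high energy demand, and microglia are the resident macrophages of the tissue.

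Library totals ran from 8996298 to 17446905 counts in microglia and from 20469100 to 24361772 in whole retina, so counting error was smaller in whole retina. The 12 microglial marker genes summed to between 12099 and 24135 CPM (counts scaled to a common library size) in the microglial libraries and to between 63.5 and 87.2 CPM in whole retina. Markers of rods summed to between 23.6 and 48.4 CPM in e16.5 microglia, 349 to 488 at P7 and 757 to 4811 at P60, against 66935 CPM in P60 whole retina. The 10 cell cycle genes summed to between 3215 and 3784 CPM in microglia at e16.5, 736 to 792 at P7 and 323 to 539 at P60. In pooled RNA of this kind, fewer cells of a type and less RNA per cell cannot be told apart.

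Several members share bases with each other or with a second place in the genome, and their sequences are shown because the split of reads between them touches the values that follow. On GRCm38, mt-Atp8 (chrM:7766-7969, plus strand), which encodes a small ATP synthase subunit, ends inside mt-Atp6. The 43 bases in capitals belong to both genes.
mt-Atp8: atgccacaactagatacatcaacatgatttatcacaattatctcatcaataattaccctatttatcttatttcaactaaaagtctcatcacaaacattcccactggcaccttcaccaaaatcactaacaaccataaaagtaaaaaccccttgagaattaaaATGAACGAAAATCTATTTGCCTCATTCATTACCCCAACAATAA
In the same way mt-Nd4l, for a small complex I subunit, shares its last 7 bases with the start of mt-Nd4 (chrM:10137-10203 is shown, plus strand, with the shared bases in capitals).
mt-Nd4l end and mt-Nd4 start: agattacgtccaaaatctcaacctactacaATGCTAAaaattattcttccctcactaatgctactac
The genes mt-Nd5 and mt-Nd6 overlap by 14 bases on opposite strands, and mt-Atp6 and mt-Co3 share 1 base.

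A block of the nuclear genome on chromosome 1, between 24611535 and 24616197 on the minus strand, carries annotated copies of several mitochondrial genes. The copy of mt-Co3, named Gm28437 in the table, matched mt-Co3 in all 783 aligned bases, and the first 60 bases of both show no difference (chrM:8607-8666, plus strand, and chr1:24613912-24613971, minus strand).
mt-Co3: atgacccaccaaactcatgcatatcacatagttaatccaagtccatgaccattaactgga
Gm28437: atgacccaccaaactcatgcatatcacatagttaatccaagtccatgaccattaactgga
The copy of mt-Nd3, Gm28438, differed at 1 of 345 aligned bases, T3C counted from the first base of mt-Nd3, and that base is in capitals (chrM:9459-9518, plus strand, and chr1:24613060-24613119, minus strand).
mt-Nd3: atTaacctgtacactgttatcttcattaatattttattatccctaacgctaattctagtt
Gm28438: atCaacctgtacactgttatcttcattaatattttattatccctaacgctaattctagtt
Copies of mt-Atp6 (678 aligned bases), mt-Co2 (681), mt-Nd4 (876) and mt-Nd4l (294) were also identical over their aligned bases. The authors' estimated counts give each copy a row of its own, so a member's level depends on how reads were divided between it and its copy. Counts on these copies were 11.8 to 12.3% of the mitochondrial members' counts plus the copies' in the e16.5 microglial libraries, but 56.9 to 59.7% in e16.5 whole retina. For the results on named members that change in call or direction when copies are added, the value with them is given beside the first. Changes in size alone are given for some, so a value that stands alone may still shift in size.

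The mitochondrial-encoded members together held far more of the RNA in microglia than in embryonic retina, and the nuclear members far less. In e16.5 microglia the 13 mitochondrial members took 2.72, 5.07 and 3.77% of all counts, 3.86% ± 1.18 (SD, n = 3), and in P7 microglia 2.56, 4.65 and 3.49%, 3.57% ± 1.05 (n = 3). In P60 microglia the 3 libraries lay at 1.03, 1.16 and 1.39%, on average 1.2% ± 0.18 (n = 3), all below every younger microglial library. In whole retina the same genes took 0.270, 0.357 and 0.246% of counts at e16.5, 0.291% ± 0.059 (n = 3), then 0.789% at P7 (95% Wilson interval 0.786 to 0.793%, counting error only) and 1.37% at P60 (1.37 to 1.38%). So the summed mitochondrial level was lower with age in microglia and higher with age in whole retina, and on the members' own rows the P60 retina library lay within the range of P60 microglia. With the copies added it took 2.49% of counts, above the 1.17 to 1.61% of the P60 microglial libraries. These sums over members are descriptions and carry no test.

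The 81 nuclear members took 0.316% ± 0.032 of counts in microglia of e16.5, 0.294% ± 0.031 in those of P7 and 0.206% ± 0.032 in those of P60 (SD, n = 3 each). In whole retina they took 0.966% ± 0.017 at e16.5 (n = 3), 0.937% at P7 (0.933 to 0.941%) and 0.750% at P60 (0.746 to 0.753%). No microglial library reached any whole retina library in this sum. Mitochondrial counts exceeded nuclear counts 12.3 times on average in e16.5 microglia, 12.4 times at P7 and 6.02 times at P60, while the ratio in whole retina was 0.302 in e16.5 libraries, 0.843 in the P7 library and 1.83 in the P60 library. On the log2 scale that ratio was 3.57 ± 0.48, 3.56 ± 0.56 and 2.54 ± 0.44 in microglia (SD, n = 3) and -1.75 ± 0.31 (n = 3), -0.25 and 0.87 in whole retina. With the copies added to their members the whole retina ratios became -0.56, 0.66 and 1.68, which changes the sign at P7.

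**Figure D1:**
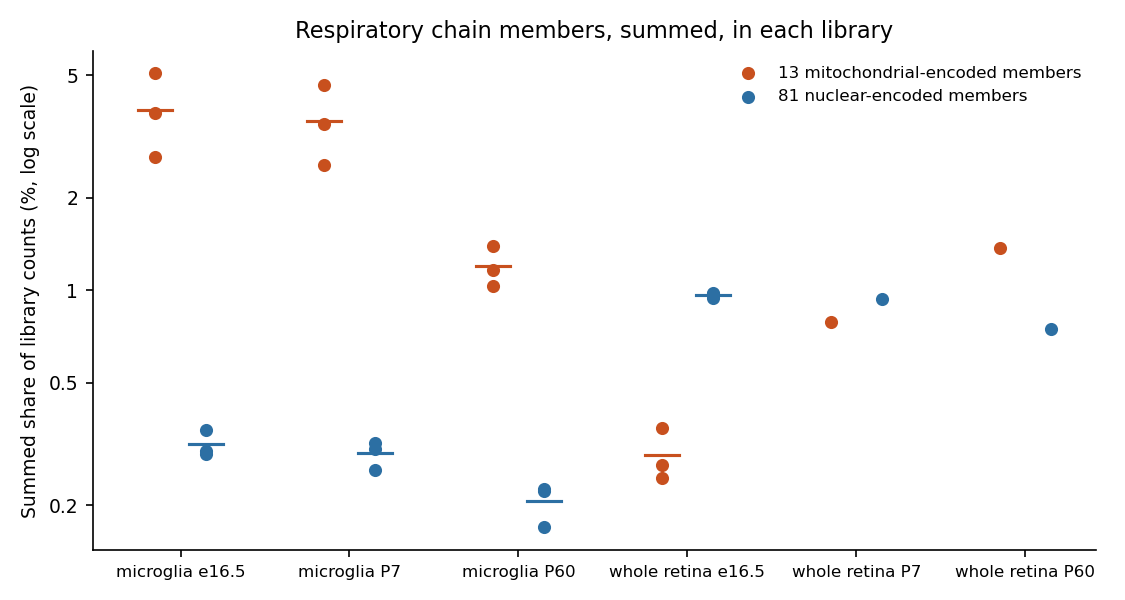
Share of all counts (percent, log axis) taken by the 13 mitochondrial-encoded and the 81 nuclear-encoded members; each dot is 1 library and each line a group mean. The microglial libraries run from 1.03 to 5.07% for mitochondrial members and lie below every whole retina library for nuclear members.

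Single genes dominated both sums. mt-Co1, the catalytic core of complex IV, held 40.0% ± 1.73 of mitochondrial counts in e16.5 microglia, 41.5% ± 1.27 at P7 and 39.1% ± 6.62 at P60 (SD, n = 3 each), and 63.8% ± 3.24 in e16.5 whole retina. Its 2 single whole retina libraries gave 66.0% at P7 and 63.5% at P60. The gap at e16.5 did not hold with copies added to all members. mt-Co1 then held 38.5% ± 2.12 in microglia and 35.2% ± 1.63 in whole retina (SD, n = 3 each), and 46.2% and 47.9% in the P7 and P60 whole retina libraries. Its microglial share stayed within the spread between libraries over age on either reading. Among nuclear members Atp5b, the catalytic beta subunit of ATP synthase, held 36.4% ± 8.82 of nuclear member counts in e16.5 microglia, 24.8% ± 4.61 at P60 and 12.7% ± 0.253 in e16.5 whole retina. Per length, in TPM (a share of transcripts) averaged over the 14 libraries, Atp5b was also the most abundant nuclear member of its complex with 2041 TPM, ahead of Atp5j, a peripheral stalk subunit, with 613 TPM. The most abundant in the other complexes were Ndufa10 (598 TPM), Sdha (441 TPM), Uqcrh (209 TPM) and Cox6b1 (535 TPM).

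At e16.5, where both tissues had 3 libraries, 12 of the 13 mitochondrial members were higher in microglia than in whole retina at an adjusted p under 0.05 (edgeR quasi-likelihood test, Benjamini-Hochberg over all 16140 genes tested). Of all genes tested, 33.1% were higher in microglia by that rule, and the median log2 fold change was 5.78 over the mitochondrial members against -0.13 over all genes. Fold changes are from the fit, which scales these 6 libraries by themselves. They stand 0.37 above the log2 ratio of the CPM values printed, which are scaled over all 14 libraries.

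Complex I genes held the largest of these differences. mt-Nd5, a proton-pumping core subunit, was at 2052, 6238 and 4827 CPM in e16.5 microglia and at 12.9, 14.3 and 11.4 CPM in whole retina. No library overlapped, and the log2 fold change was 8.78 ± 0.54 (SE, edgeR adjusted p = 2.9e-05). mt-Nd4, another pumping subunit, read 3594, 7454 and 5474 CPM against 21.1, 24.8 and 16.8 CPM, a log2 fold change of 8.41 ± 0.41 (adjusted p = 1.2e-05). mt-Nd4l, the overlapping neighbour shown above, was at 301, 822 and 508 CPM in microglia, while whole retina read 1.72, 1.66 and 0 CPM (3 counts correspond to 0.147 CPM in that last library). mt-Nd6, the only member transcribed from the other mitochondrial strand, had a log2 fold change of 7.69 ± 0.58 (adjusted p = 6.8e-05). mt-Nd2 (6.96 ± 0.61) and mt-Nd1 (4.78 ± 0.40) were also higher without overlap.

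mt-Cytb, the cytochrome b subunit of complex III, was at 3861, 8059 and 6535 CPM in microglia and 118, 167 and 104 CPM in whole retina, a log2 fold change of 5.94 ± 0.39 (adjusted p = 3.9e-05). On the members' own rows mt-Co1 (chrM:5328-6872, plus strand) was the highest of all members in both tissues by counts. It was at 10369, 20909 and 17889 CPM against 1687, 2375 and 1690 CPM, and its log2 fold change was 3.46 ± 0.34 (adjusted p = 0.000199). With copies added mt-Co3 ranked above mt-Co1 in e16.5 whole retina by mean CPM. There mt-Co3 and Gm28437 averaged 489 and 2503 CPM, and mt-Co1 and its main copy Gm29216 averaged 1917 and 613 CPM. The ATP synthase subunits were higher by 2.57 ± 0.50 for mt-Atp6 (adjusted p = 0.00355) and 3.38 ± 0.39 for mt-Atp8 (adjusted p = 0.000439). The 12 mitochondrial members called higher therefore ranged from 0.86 to 9.27 in log2 fold change.

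The 3 smallest values, those of mt-Nd3, mt-Co3 and mt-Atp6, belonged to genes with an identical or nearly identical copy, but so did mt-Nd4l (9.27) and mt-Nd4 (8.41), among the largest. mt-Co3, a structural core subunit of complex IV, was at 755, 777 and 534 CPM in microglia and 536, 555 and 375 CPM in whole retina, so the groups overlapped although the test gave 0.86 ± 0.23 (adjusted p = 0.015). Scaling by total counts alone gave 0.50 and ended that call. Of the counts on mt-Co3 and Gm28437 together, 83.7% were on the copy in whole retina and 18.9% in microglia. With the copy added, mt-Co3 summed to 934, 860 and 755 CPM in microglia and 2679, 3924 and 2373 CPM in whole retina, which turned the direction, with a log2 fold change of -1.45 (adjusted p = 0.00168). mt-Nd3, a small complex I subunit, did not pass the test on its own row (0.56 ± 0.61, adjusted p = 0.448) and was lower in microglia with Gm28438 added (-2.62, adjusted p = 0.000967). That copy had no counts in e16.5 microglia and held 89.0% of the pair in whole retina.

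mt-Co2, the copper-binding complex IV subunit, fell from 5.78 ± 0.41 to 1.63 once its copy was added, since the copy held 96.7% of the pair in whole retina and 41.4% in microglia, and it stayed higher in microglia (adjusted p = 0.00389). For mt-Atp6 the split ran the other way, with 79.8% on the copy in microglia and 67.6% in whole retina, and the log2 fold change went from 2.57 to 3.25. With all copies added, 11 mitochondrial members were higher and 2 lower in microglia, with a median of 4.78. Which molecules gave these reads, mitochondrial or nuclear, was not tested.

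**Figure D2:**
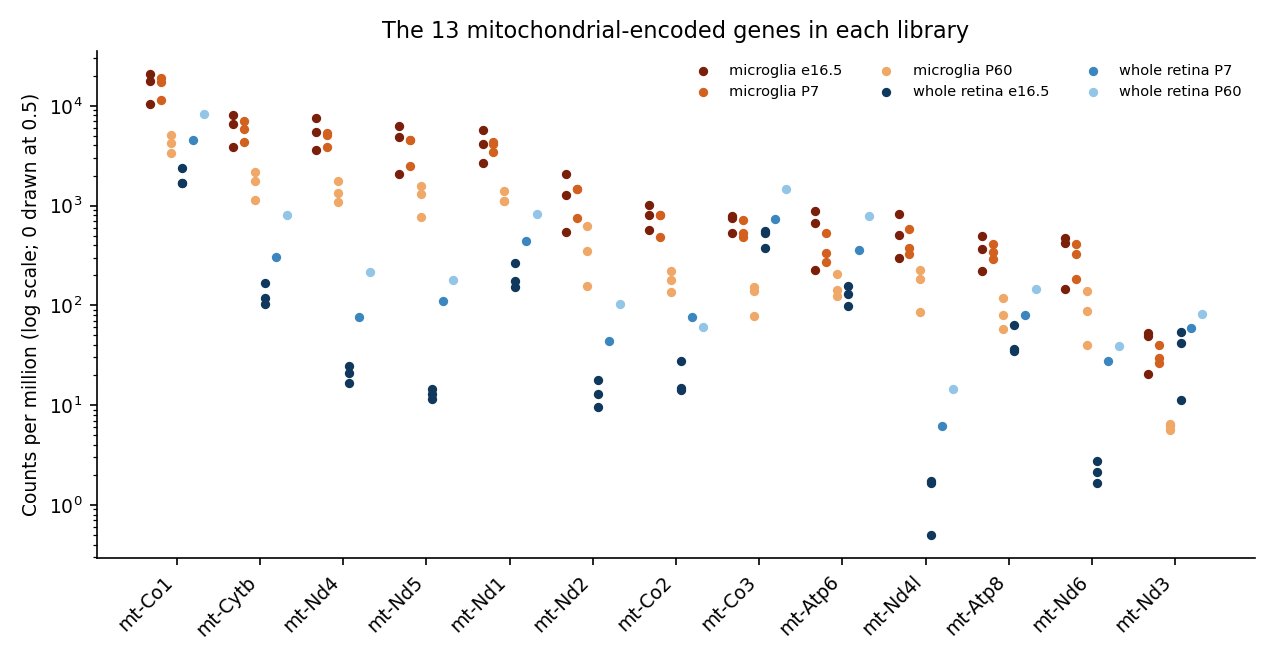
Level of each of the 13 mitochondrial-encoded members (CPM, log axis, 0 drawn at 0.5) in every library of each group, by gene. mt-Nd5 spans 2052 to 6238 CPM in e16.5 microglia and 11.4 to 14.3 CPM in e16.5 whole retina, while mt-Co3 overlaps between these groups.

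The nuclear members went the opposite way at e16.5. Of 79 tested, 62 were lower and 1 was higher in microglia than in whole retina, with a median log2 fold change of -2.25, where 30.1% of all genes tested were lower. By complex, 31 of 37 tested members of complex I were lower, 1 of 4 of complex II, all 8 of complex III, 10 of 14 of complex IV and 12 of 16 of complex V. Whole retina libraries were tightly grouped, with a median SD of log2 CPM of 0.0638 over nuclear members, against 0.759 in e16.5 microglia.

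Among the genes sorted under complex I by name was Ndufa4l2, a paralog of Ndufa4 known to be induced by hypoxia. It was at 132, 76.2 and 103 CPM in e16.5 whole retina and at 0.901, 1.30 and 0.0673 CPM in microglia, a log2 fold change of -6.74 ± 0.80 (adjusted p = 0.000469). Ndufb7, an accessory subunit, read 2.79, 2.07 and 3.70 CPM in microglia and 55.6, 53.4 and 58.3 CPM in whole retina (-3.92 ± 0.34, adjusted p = 0.000121). Ndufa10, the most abundant nuclear member of complex I per length, was lower by less (-1.37 ± 0.26, adjusted p = 0.00346). Ndufa9, a subunit near the quinone site, did not pass (-0.08 ± 0.27, adjusted p = 0.816), and its groups overlapped.

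Complex II has no mitochondrial-encoded subunit, and 1 of its 4 genes passed. Sdha, the flavoprotein that oxidises succinate, was at 175, 190 and 232 CPM in e16.5 microglia and 196, 195 and 192 CPM in whole retina, with overlapping groups (0.40 ± 0.16, adjusted p = 0.0624). Sdhb, its iron-sulfur partner, was at 7.95, 11.9 and 26.5 CPM against 112, 112 and 119 CPM and was lower in microglia (-2.52 ± 0.45, adjusted p = 0.00247). The membrane anchors Sdhc (-0.89 ± 0.47, adjusted p = 0.133) and Sdhd (-0.15 ± 0.45, adjusted p = 0.778) did not pass. Within this one complex the subunits thus spanned 0.40 to -2.52.

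In complex III, Uqcr11, a small accessory subunit, was at 1.80, 0.614 and 10.2 CPM in microglia and 75.1, 76.6 and 72.3 CPM in whole retina (-3.78 ± 0.93, adjusted p = 0.0105). The core protein Uqcrc2 was lower by less (-1.14 ± 0.25, adjusted p = 0.00604). In complex IV, Cox6b1, which faces the intermembrane space, was at 8.19, 21.8 and 5.59 CPM against 195, 184 and 191 CPM (-3.63 ± 0.53, adjusted p = 0.00107). Cox7c, a small membrane subunit, was the only nuclear member called higher (1.77 ± 0.47, adjusted p = 0.0142), from 14.4, 42.2 and 25.5 CPM against 7.92, 12.6 and 10.5 CPM. That call and its direction changed when processed copies were counted with it. The copies held 91.5% of the combined counts in whole retina and 56.1% in microglia. With them added Cox7c gave -0.59 (adjusted p = 0.0953), and 63 nuclear members were lower and none higher. Whether these reads came from Cox7c or from its copies was not tested.

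In complex V, Atp5o, the stalk subunit that confers oligomycin sensitivity, was at 3.44, 9.51 and 15.2 CPM in microglia and 240, 230 and 252 CPM in whole retina (-4.31 ± 0.52, adjusted p = 0.000502). Atp5b, in contrast, was at 1248, 862 and 1525 CPM against 1269, 1229 and 1302 CPM, and its groups overlapped (0.30 ± 0.22, adjusted p = 0.27). Atp5g2, one of 3 genes for the same membrane ring subunit, was lower (-2.06 ± 0.37, adjusted p = 0.00256) and lower still with its identical copy Gm10175 added (-3.83). Its sister genes Atp5g1 (-1.36 ± 0.24) and Atp5g3 (-1.46 ± 0.29) were also lower, but the call on Atp5g1 was lost with its copy Gm10039 added (-0.79, adjusted p = 0.058).

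Subunits with tissue-restricted isoforms were read as pairs. Cox4i2, the isoform of Cox4 known from lung and from pericytes, was at 54.2, 36.4 and 46.7 CPM in e16.5 whole retina and at 1.15, 0.0767 and 1.35 CPM in e16.5 microglia (-5.36 ± 0.83, adjusted p = 0.00141). Its widely expressed partner Cox4i1 was also lower in microglia, at 38.7 ± 18.1 CPM against 319 ± 13.9 CPM (-2.67 ± 0.35, adjusted p = 0.000721). The heart and muscle isoforms Cox6a2 and Cox8b had no counts in any e16.5 library, and Cox7a1 stayed at or below 0.410 CPM in every microglial library and at or below 1.78 CPM in every whole retina library. Their partners Cox6a1 (-1.71 ± 0.31), Cox7a2 (-2.43 ± 0.61) and Cox8a (-2.98 ± 0.45) were each lower in e16.5 microglia.

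Transcript length went with the size of the difference. Annotated lengths of nuclear members ran from 360 to 4715 bases with a median of 838. The 47 tested members with transcripts under 1000 bases had a median log2 fold change of -2.49 and 41 were lower, against a median of -1.31 and 44.1% lower over all 1691 genes of that length. The 25 members of 1000 to 2000 bases had a median of -1.62 with 18 lower (all genes, -0.56 and 35.6%), and the 7 longer ones -0.89 with 3 lower (all genes, 0.09 and 26.6%). Spearman's rho between length and log2 fold change was 0.36 over the 79 nuclear members, which share the same 6 libraries. The mitochondrial members are also short, at 204 to 1824 bases, and were higher. What part length, amplification or library kit has in these differences was not tested.

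**Figure D3:**
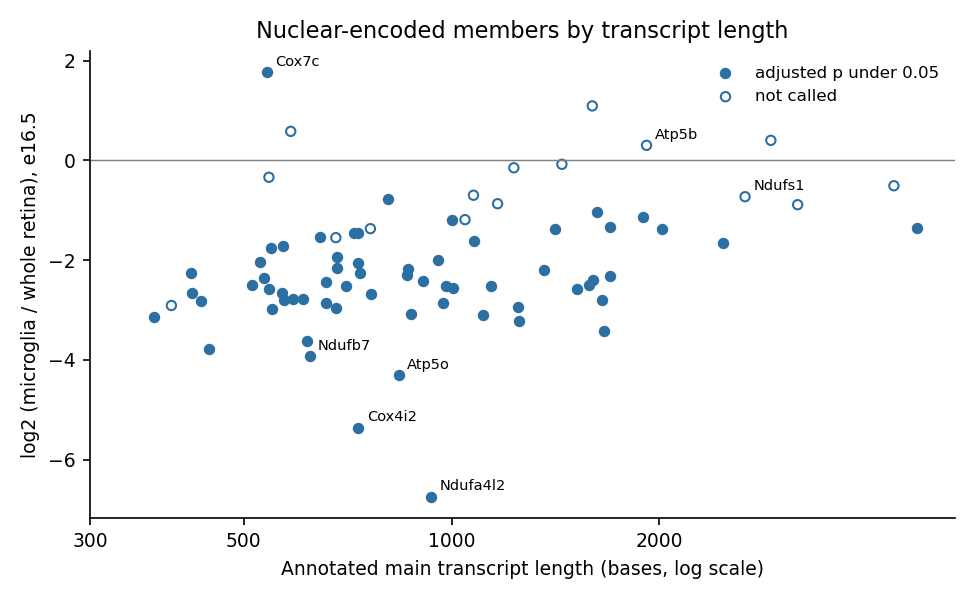
Transcript length (bases, log axis) against the log2 fold change between e16.5 microglia and e16.5 whole retina for nuclear members. Filled points have an adjusted p under 0.05 and open points do not. Nuclear members under 1000 bases have a median of -2.49 and those of 2000 bases or more -0.89.

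Promoters of 67 nuclear members were matched in the RefSeq table for GRCm38.p6, each window running from 250 bases before to 50 after a gene start. The core of the binding site of NRF1, a factor known for respiratory chain genes (GCGCATGC, either strand), was found in 13.9% of the 72 member windows and in 2.71% of all 32851 windows. The ETS core CCGGAAG, the type bound by GABP, was found in 22.2% of member windows and in 8.86% of all windows. The 2 motifs do not overlap in the windows shown. Both motifs were found in windows of Uqcr11, Sdhb, Atp5k, Cox6a1 and Atp5l. Mean CPM in e16.5 microglia and whole retina was 5.897 and 67.6 for Atp5k, 29.15 and 122.8 for Cox6a1, and 32.8 and 53.76 for Atp5l. Of these, Uqcr11 and Sdhb are shown, with the motifs in capitals, and both were lower in microglia. The windows lie at chr10:80406772-80407071 on the minus strand and chr4:140961021-140961320 on the plus strand.
Uqcr11 promoter: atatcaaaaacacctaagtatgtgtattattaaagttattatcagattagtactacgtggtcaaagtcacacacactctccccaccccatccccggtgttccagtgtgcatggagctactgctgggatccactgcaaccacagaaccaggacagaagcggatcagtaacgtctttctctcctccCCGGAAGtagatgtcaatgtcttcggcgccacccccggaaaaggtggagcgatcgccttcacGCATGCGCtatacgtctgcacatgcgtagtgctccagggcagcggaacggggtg
Sdhb promoter: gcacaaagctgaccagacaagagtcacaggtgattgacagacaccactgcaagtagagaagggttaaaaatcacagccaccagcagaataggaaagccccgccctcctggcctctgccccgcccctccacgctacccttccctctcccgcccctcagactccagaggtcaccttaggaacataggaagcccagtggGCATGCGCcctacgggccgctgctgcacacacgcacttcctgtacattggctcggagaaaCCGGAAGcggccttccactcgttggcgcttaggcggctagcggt
A match of letters is a description and not a measured site. The genes of the factors themselves did not move as one, with Gabpa (1.30 ± 0.19) and Gabpb1 (1.28 ± 0.18) higher in e16.5 microglia and Nrf1 lower (-0.77 ± 0.19).

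Between e16.5 and P7 no member of either class passed the test in microglia. The edgeR quasi-likelihood test called 0 of 78 nuclear and 0 of 13 mitochondrial members, none had an unadjusted p under 0.05, and DESeq2 also called none, where 0.2% of all 16019 genes passed in either direction. The median log2 fold change was -0.16 over nuclear and -0.20 over mitochondrial members. All 13 mitochondrial values lay slightly below 0, from -0.66 to -0.05, with overlapping libraries for every gene.

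Between P7 and P60 the mitochondrial members fell in microglia. Of the 13, 8 passed the test as lower, where 1.09% of all genes did, and all 13 had every P60 library below every P7 library, where 12.9% of all genes did. The median was -1.74 over the mitochondrial members and 0.07 over all genes. mt-Co1 went from 11479, 19070 and 17358 CPM at P7 to 4229, 3372 and 5076 CPM at P60, a log2 fold change of -1.88 ± 0.29 (adjusted p = 0.0128). mt-Co3 went from 719, 531 and 482 CPM to 79.0, 154 and 140 CPM (-2.18 ± 0.32, adjusted p = 0.00924). Adding its copy left mt-Co3 lower (-1.72, adjusted p = 0.0337).

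The other genes that fell were mt-Nd1 (-1.68 ± 0.28), mt-Nd3 (-2.37 ± 0.50), mt-Nd4 (-1.74 ± 0.30), mt-Cytb (-1.71 ± 0.32), mt-Co2 (-1.91 ± 0.31) and mt-Atp8 (-2.0 ± 0.36). With copies added mt-Nd3 no longer passed (adjusted p = 0.0522), and mt-Atp6, at -1.23 ± 0.45 on its own row (adjusted p = 0.198), passed with -1.73 (adjusted p = 0.0146). The values for mt-Nd2, mt-Nd4l, mt-Nd5 and mt-Nd6 lay between -1.34 and -1.75 with adjusted p from 0.0804 to 0.155. The number of members called was sensitive to single libraries, at 2 without the second P7 or the second P60 library, 5 without the first of either age and 1 without the third P7 library. The direction was lower for all 13 in each of these fits.

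Against e16.5, with which the last comparison shares its P60 libraries, P60 microglia were lower for 10 of 13 mitochondrial members, where 2.5% of all genes were lower. In 12 of 13 no library overlapped, where 13% of all genes lay wholly below, and the median was -1.93. mt-Nd5 was at 764, 1319 and 1567 CPM at P60 (-1.82 ± 0.41, adjusted p = 0.0357), mt-Nd4 at 1074, 1338 and 1782 CPM (-1.96 ± 0.30, adjusted p = 0.00623) and mt-Cytb at 1148, 1776 and 2163 CPM (-1.84 ± 0.33, adjusted p = 0.0124). Each lay below all 3 of its e16.5 values given above. The 3 that did not pass were mt-Nd2 (-1.76 ± 0.54, adjusted p = 0.101), the only one whose groups overlapped, mt-Nd4l (-1.71 ± 0.43, adjusted p = 0.0543) and mt-Nd6 (-1.95 ± 0.52, adjusted p = 0.0679). Members called, both classes together, dropped from 12 to 5 without the second e16.5 library and to 7 without the third.

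Nuclear members shifted less with age. Between P7 and P60 the edgeR test called 0 of 78, 11 had an unadjusted p under 0.05 and DESeq2 called 8, all lower. Over all 16019 genes, 2687 had an unadjusted p under 0.05, so the share of members was not above that. DESeq2 called 843 of all genes lower. The median was -0.40 against 0.07 over all genes, and 59 of 78 values were below 0, against 7625 of all 16019. In 14 of 78 all P60 libraries lay below all P7 libraries, a share not far above the 12.9% of all genes. Between e16.5 and P60, 2 of 78 fell, which is near the 2.5% of all genes, and the median was -0.73. Cox5a (chr9:57521274-57532426, plus strand), a complex IV subunit that faces the matrix, went from 17.5, 26.2 and 43.0 CPM at e16.5 to 4.89, 7.56 and 4.09 CPM at P60 (-2.37 ± 0.56, adjusted p = 0.0435). Atp5b (chr10:128083273-128090391, plus strand) went from the e16.5 values above to 596, 403 and 388 CPM (-1.37 ± 0.32, adjusted p = 0.0383). Neither gene's groups overlapped, and neither call held when only the libraries of the 2 ages were fitted or when counts were scaled by library totals alone.

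Of the nuclear members that did not pass, Cox6b1 stood at 1.86, 0.258 and 0.356 CPM at P60 (-3.83 ± 1.02 against e16.5, adjusted p = 0.0656), below all 3 e16.5 libraries. Ndufa4l2 had no counts in any P60 microglial library, where 3 counts would be 0.258 to 0.293 CPM. Sdha barely moved, at 177, 181 and 124 CPM (-0.29 ± 0.27, adjusted p = 0.574). In the authors' deposited table, an adjusted p under 0.05 was given to 12 mitochondrial and 14 nuclear members between e16.5 and P60, to 10 and 10 between P7 and P60, and to none between e16.5 and P7. Over all genes with a value there, 15.4%, 11.6% and 3.57% had one in these comparisons, so the nuclear shares of 17.7% and 12.8% were near that of all genes.

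The P60 microglial libraries were also the shallowest, had more rod marker RNA than the younger ones and had less cell cycle RNA, as given above, and the part of each in these falls was not tested.

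**Figure D4:**
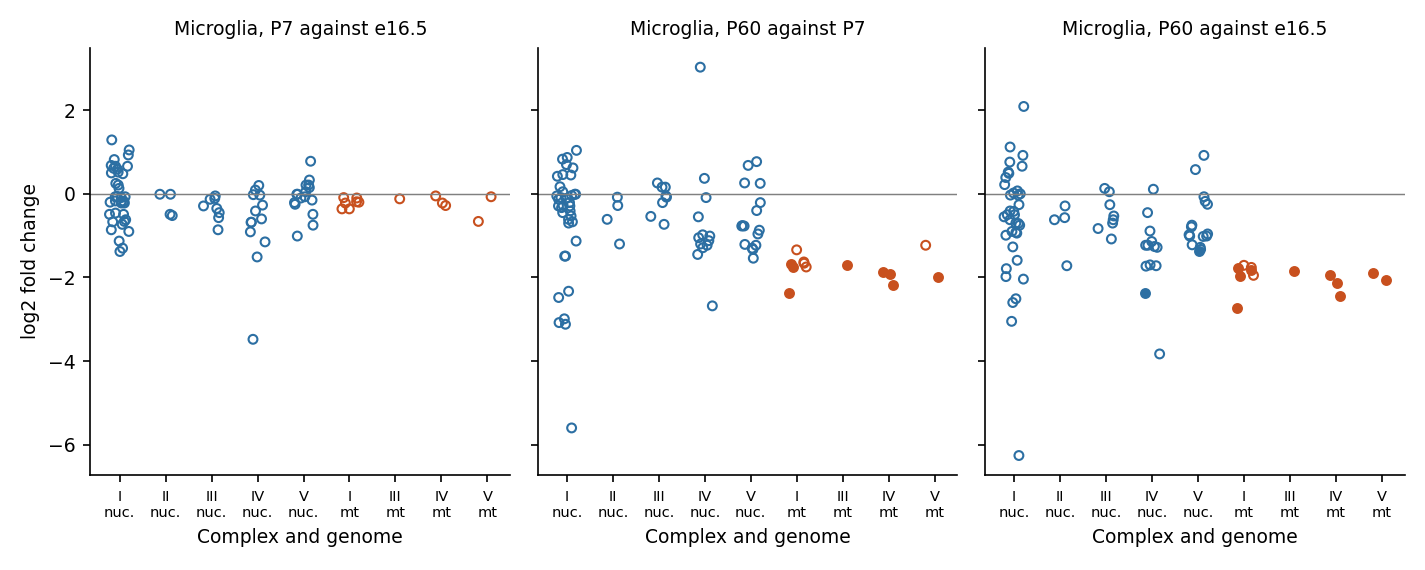
Log2 fold change of every tested member between ages in microglia, by complex and encoding genome; filled points have an adjusted p under 0.05. Mitochondrial members run from -0.66 to -0.05 between e16.5 and P7 and from -2.72 to -1.71 between e16.5 and P60.

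Whole retina ran the other way with age for the mitochondrial members, on 1 library each at P7 and P60 and so without a test. Values are log2 ratios of CPM with 0.1 CPM added. From e16.5 to P7, 10 of 13 mitochondrial members were at least 2-fold higher, where 22.2% of 16366 genes with a mean of at least 1 CPM were, and the median was 1.49. From e16.5 to P60 all 13 were at least 2-fold higher, where 26.5% of genes were, with values from 1.19 to 4.12 and a median of 2.60. mt-Nd5 stood at 112 CPM at P7 and 178 CPM at P60, against at most 14.3 CPM at e16.5. mt-Nd6 stood at 27.5 and 39.4 CPM against at most 2.75 CPM, mt-Cytb at 302 and 813 CPM against at most 167 CPM, and mt-Co1 at 4515 and 8211 CPM against at most 2375 CPM. Each later library lay above all 3 e16.5 libraries. With copies added, 9 members were at least 2-fold higher at P7 and 12 at P60, with medians of 1.28 and 2.15. mt-Co3 was then 1.87-fold higher at P60, and mt-Atp6 went from 2.80-fold to 1.45-fold at P7.

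Of 78 nuclear members in whole retina none was 2-fold higher at either age. At P7, 4 were at least 2-fold lower, where 13.3% of genes were: Ndufa4l2, Cox4i2, Cox7a2l, a factor for supercomplexes, and Atp5e, the epsilon subunit of ATP synthase. At P60, 19 were at least 2-fold lower, where 22.4% of genes were, so the share of members (19 of 78) was near that of all genes. Ndufa4l2 changed most, from 132, 76.2 and 103 CPM at e16.5 to 48.6 CPM at P7 and 1.19 CPM at P60. Atp5b stayed near its level, at 1160 and 1184 CPM.

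Between microglia and whole retina the summed mitochondrial level came close by P60 on the members' own rows, although single genes stayed apart in both directions, and the nuclear members stayed lower in microglia, as far as single retina libraries show. At P7, 10 of 13 mitochondrial members were at least 2-fold higher in microglia, where 29.8% of genes were, and 67 of 78 nuclear members were at least 2-fold lower, where 37.9% of genes were. At P60, 7 mitochondrial members were still at least 2-fold higher, where 32% of genes were. mt-Nd3 (-3.72), mt-Co3 (-3.55) and mt-Atp6 (-2.32) were at least 2-fold lower, as were 69 nuclear members, where 37.8% of genes were. With copies added, 6 mitochondrial members were at least 2-fold higher and 4 lower at P60: mt-Co2 turned from 1.57 to -3.08, mt-Co1 went from -0.96 to -1.28, and mt-Atp6 went from -2.32 to -0.45. At P7 10 were then higher and 2 lower, mt-Nd3 (-3.55) and mt-Co3 (-2.33). The 10 were not the same genes, since at P7 mt-Co2 went from 3.16 to -0.19 and mt-Atp6 from 0.06 to 2.25. The summed mitochondrial share was 13.2-fold higher in microglia than in whole retina at e16.5 (6.27-fold with copies added), 4.52-fold higher at P7 (2.70-fold) and 1.15-fold lower at P60 (1.82-fold lower). The summed nuclear share was 3.06-fold, 3.18-fold and 3.65-fold lower.

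Genes that serve the chain without being part of it were read in the same fits, where 33.1% of all genes were higher and 30.1% lower in e16.5 microglia than in whole retina. The lower shares of the lists for biogenesis, carriers and the citric acid cycle were near that background, while their higher shares were below it. Of 38 genes for mitochondrial biogenesis and for expression of the mitochondrial genome, 8 were higher and 10 lower in e16.5 microglia than in whole retina, with a median of -0.55. Polg2, the accessory subunit of the mitochondrial DNA polymerase, was at 232 ± 107 CPM against 5.31 CPM (5.82 ± 0.44, adjusted p = 6.78e-05), while Tfam, which packages mitochondrial DNA and starts its transcription, was at 13.7 ± 3.62 CPM against 92.8 CPM (-2.39 ± 0.26, adjusted p = 0.000342). Of 49 assembly factors 3 were higher and 19 lower (median -1.17), among them Atpaf1, for ATP synthase (2.09 ± 0.33), and Uqcc2, for complex III (-5.10 ± 0.76). Of 27 carriers and transporters 5 were higher and 9 lower (median -0.13): Ucp2, an inner membrane carrier known from macrophages, was at 328 ± 29.1 CPM in microglia and 2.74 CPM in whole retina (7.27 ± 0.21, adjusted p = 3.43e-06), and Slc25a4, an ADP/ATP carrier, was lower (-1.51 ± 0.18). Of 19 citric acid cycle genes 2 were higher and 7 lower (median -0.30), Idh2 among the latter (-2.24 ± 0.24).

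Ribosomal protein genes, whose messages are also short, were compared at e16.5. Of 75 cytosolic ribosomal protein genes 52 were lower and 3 higher in microglia (median -1.80). Of 77 mitochondrial ribosomal protein genes 38 were lower and 1 higher (median -1.40), near the 44.1% lower and the median of -1.31 over all genes with transcripts under 1000 bases. The nuclear respiratory members' median was -2.25 on the same scale. Between e16.5 and P60 in microglia, 11 of 75 cytosolic and 1 of 74 mitochondrial ribosomal protein genes fell, where 2.5% of all genes did. Their medians were -1.62 and -0.05. An unadjusted edgeR p under 0.05 was found for 58 cytosolic and 9 mitochondrial ribosomal protein genes, against 3222 of all 16019 genes. DESeq2 called 49 and 3 of them lower, against 1220 of all genes.

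With age in microglia, none of the genes for biogenesis, assembly, transport or the citric acid cycle passed the edgeR test in any of the 3 comparisons. Between P7 and P60 an unadjusted p under 0.05 was found for 1 of 38, 3 of 48, 4 of 27 and 3 of 19 of them in that order, and DESeq2 called 0, 1, 1 and 2. Between e16.5 and P60 these counts were 2, 5, 5 and 3, and with DESeq2 again 0, 1, 1 and 2. Between e16.5 and P7 they were 2, 2, 1 and 0, and with DESeq2 0, 0, 1 and 0. Over all 16019 genes an unadjusted edgeR p under 0.05 was found for 2687, 3222 and 1245 in these 3 comparisons in turn. DESeq2 called 406, 682 and 159 of all genes higher and 843, 1220 and 169 lower. In the glycolytic list 7 of 22 genes fell between P7 and P60, where 1.09% of all genes did, and 9 between e16.5 and P60, where 2.5% did, with medians of -0.95 and -1.0. Pgk1, which makes ATP in glycolysis, was at 43.2 ± 11.2 CPM at P60 and 279 CPM at P7 (-2.65 ± 0.34, adjusted p = 0.00478), and Pkm, pyruvate kinase, at 112 ± 11.7 CPM and 548 CPM (-2.26 ± 0.29, adjusted p = 0.00478). Of 13 hypoxia-induced genes 1 fell between P7 and P60, and at e16.5 1 of 12 was higher and 4 were lower in microglia than in whole retina.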

How the data were processed

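Whole-transcriptome RNA sequencing of 14 libraries was analysed from 1 deposited table, which holds estimated counts and FPKM per gene for each library and the authors' adjusted p-values and log2 fold changes. Salmon 0.9.1, DESeq2 1.20.0 and GRCm38.p6 are named in the submitters' processing notes. The deposited expected counts were rounded to whole numbers. The deposited FPKM values were rescaled to TPM for comparisons between genes. Of the authors' deposited p-values, the members called are quoted once, and the deposited log2 fold changes were not used.

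Tests were edgeR's quasi-likelihood test (TMM scaling, filterByExpr, Benjamini-Hochberg over all genes tested, threshold 0.05), with the 3 microglial ages in 1 fit and e16.5 microglia and retina in another. They were tested on simulated data. Labels call the microglial libraries biological replicates. For whole retina nothing says so, and p-values may there measure technical spread. A group's SD is over its libraries. The SE of a log2 fold change comes from the edgeR fit, as the size of the change divided by the square root of its F statistic. Copies were annotated transcripts at 95% identity or more over 150 bases or more, each added to the member it matched best.

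Named genes were all mitochondrial members and, of the nuclear ones, the 6 largest rises and falls called in each comparison reaching 10 CPM in 1 of the groups without overlap, the 2 most abundant per complex, isoform pairs, all Sdh genes and those moving at least 2-fold oppositely in whole retina. Ndufa9, Ndufa4l2 at P60, Cox6b1 at P60, Tfam and Nrf1 were added after their values were seen. Members and lists were chosen with earlier results of these data known. Alternatives were other scaling, DESeq2, no low-count filter, a length offset, a replicate block, added copies and leaving out each library, and the added copies, also in the single-library ratios, and annotated lengths were chosen after seeing the data.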

Additional observations from a re-analysis of the deposited data

Results flagged for a closer look

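The summed level of the mitochondrial-encoded members moved in opposite directions with age in the 2 tissues. Between e16.5 and P60 its log2 ratio was -1.69 in microglia, where all 3 P60 libraries lay below all 3 e16.5 libraries, and 2.24 in whole retina, where the single P60 library lay above all 3. Of the 13 genes, 12 did the same one by one, and the exception was mt-Nd2, whose microglial groups overlapped. The share of all genes that met this rule in both tissues was not counted. On the microglial side alone, 13% of all genes tested had every P60 library below every e16.5 library. The difference between the tissues was not tested, since whole retina had 1 library at P60.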

How the results depend on the processing

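No member was called between e16.5 and P7 under any alternative, and 70 to 82 were called between e16.5 microglia and whole retina (75 as reported). Between P7 and P60 the count of 8 became 20 with DESeq2, 5 with a length offset, and 1 to 8 over the fits that leave out 1 library. Between e16.5 and P60 the count of 12 became 23 with DESeq2, 7 with only the 2 ages fitted, and 5 to 13 without 1 library. With the replicate number as a block the P7 to P60 count was 14. Same-numbered libraries correlated at 0.076 to 0.251 there, not every library correlated best with its own number in all comparisons, and the labels do not pair them. Scaling by totals alone moved the median of all genes from 0.07 to 0.29 (P60 against P7), 0.06 to 0.25 (P60 against e16.5) and -0.13 to -0.51 (microglia against retina). Higher and lower calls over all genes went from 42 and 175 to 61 and 99, from 138 and 400 to 189 and 301, and from 5346 and 4860 to 4679 and 5847. Of 640 values under alternatives of named genes that passed as reported, 546 kept direction and call, 92 lost the call and 2 reversed when copies were added, mt-Co3 (-1.45) and Cox7c (-0.59). Of those that had not passed, mt-Nd3 turned to -2.62. The log2 ratio of mitochondrial to nuclear counts became 3.02 (TPM) and 6.00 (median member) in e16.5 microglia, 5.90 (median member) at P7, and 1.90 and 4.58 at P60. In whole retina it became -2.13 (TPM), -1.42 (median member) and -0.56 (copies added) at e16.5. At P7 it became -0.76, 0.25 and 0.66, with -0.34 per annotated length, and at P60 0.38, 1.70 and 1.68, with 0.85 per annotated length. The cause of these shifts was not tested beyond what each alternative changes. With 8996298 counts in the shallowest microglial library, nuclear members of a few CPM rest on few counts.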
